A study of Physcomitrium patens with 21 samples.

Results

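The genes described here are 89 moss gene models whose messenger RNA was higher after a short auxin treatment. It was low in stems 12 h after removal of the shoot tip, and near or above its starting level at 24 h. They were chosen from 32926 gene models by their measured levels. Levels are in CPM, the read pairs of a gene per 1000000 read pairs counted in its library, and differences are of log2(CPM + 1) of group means. A member had a mean of at least 5 CPM at 0 h, a difference between auxin and mock of at least 1, a difference between 12 h and 0 h of at most -1, and a difference between 24 h and 0 h above -0.5. Of 15908 genes above the level limit, 509 met the auxin limit as well, 259 of these also met the 12 h limit, and 89 met all 4. The libraries of 0 h, 12 h, 24 h, auxin and mock chose the members, so their values are given as a description, and the 2 h and 6 h libraries took no part in the choice.

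All 21 libraries were made from polyadenylated RNA of gametophore stems of Physcomitrium patens, wild type, Gransden strain, with no transgene or mutation named in the labels. The decapitation series held 5 groups, collected 0, 2, 6, 12 and 24 h after decapitation from colonies 4 weeks old, each replicate pooling 5 to 10 gametophores. The auxin experiment held gametophores given 10 µM IAA (indole-3-acetic acid, the common natural auxin) for 30 min and gametophores given mock solvent for 30 min, with no colony age in the labels. All plants grew at 23 °C with 16 h light and 8 h dark. Each of the 7 groups had 3 biological replicates. The treatment label of the 24 h group carries a biotic stress entry that the other times do not have. No intact stems of 2 to 24 h were analysed here, so hours since decapitation and hour of day cannot be told apart.

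Gametophores are the leafy shoots of mosses and grow from a single apical cell. The shoot tip is a source of auxin, which inhibits the formation of new branches along the stem, and removal of the tip is followed by branching from the stem below. Inside the cell, auxin brings together a receptor of the TIR1/AFB family and a repressor of the AUX/IAA family, the repressor is degraded, and ARF transcription factors are then free to act on their target genes. The files do not pair the identifiers with gene names, and none of the 32926 identifiers matched the reference table used here. No role can therefore be given to a member, the labelled tissue was not tested against marker genes, and only a few members are printed by identifier.

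Together the 89 genes took up a share of the library that was lowest at 12 h and again near its start at 24 h. At 0 h they held 0.795%, 0.697% and 0.713% of all read pairs counted, a mean of 0.735% ± 0.0523 (SD, n = 3). After 2 h the share was 0.589% ± 0.0341, after 6 h 0.374% ± 0.0407, after 12 h 0.260% ± 0.0111 and after 24 h 0.716% ± 0.0710. In the auxin experiment it was 0.671% ± 0.0175 with IAA and 0.244% ± 0.00270 in mock. The libraries of 0 h and 24 h overlapped, as the plot of summed shares shows, and the 12 h and mock libraries lay close together although they came from separate experiments. The levels at 0 h, 12 h, 24 h, IAA and mock follow from the choice of the genes. In RNA of whole stems, fewer cells of a type and less RNA per cell cannot be told apart.

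**Figure D1:**
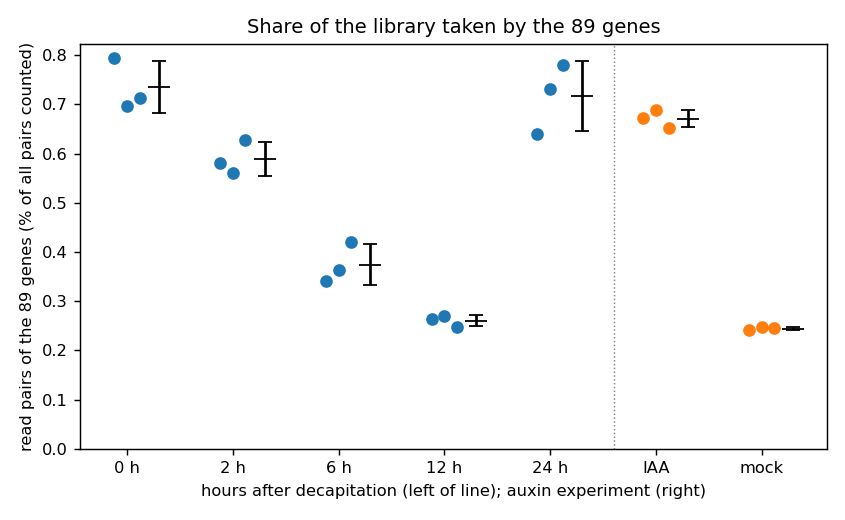
Share of all counted read pairs (%) taken by the 89 genes in each library (points, 3 per group), with the mean and SD of each group in black. The share drops from 0.735% at 0 h to 0.260% at 12 h and is 0.716% at 24 h, while IAA stands at 0.671% and mock at 0.244%.

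Within a group, the same library often held the highest or the lowest value of most members. At 24 h, replicate 1 was the lowest of the 3 libraries for 72 of the 89 genes (80.9%, against 30.1% of all genes above 5 CPM at 0 h). At 6 h, replicate 3 was the highest for 70 genes (78.7% against 28.1%) and replicate 1 the lowest for 58 (65.2% against 31.0%). At 0 h, replicate 1 was the highest for 64 genes (71.9% against 32.3%). In the mock group no library was the highest for more than 33 or the lowest for more than 32 of the genes. The median biological coefficient of variation, the spread between replicates beyond counting error as edgeR estimates it per gene over the decapitation series, was 0.117 for the members and 0.0646 for all tested genes.

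The choice of members depended on these libraries. Without replicate 1 of 0 h the rule found 128 genes, of which 82 were among the 89. Without replicate 1 of 24 h it found 118, all 89 among them, and without replicate 3 of 24 h it found 70, with 68 among them. Several members lay close to a limit. The gene just inside the auxin limit, Pp3c9_5650V3.1, had a difference of 1.001 between IAA and mock, and the nearest gene outside, Pp3c24_12160V3.1, had 0.998. At the 12 h limit Pp3c5_8450V3.1 was inside at -1.01 and Pp3c7_26740V3.1 outside at -0.99. At the 24 h limit Pp3c9_7970V3.1 was inside at -0.496 and Pp3c12_16880V3.1 outside at -0.510. The member with the lowest level at 0 h was Pp3c21_13230V3.1 with 5.33 CPM, and the nearest gene outside was Pp3c10_22150V3.1 with 3.78 CPM.

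The members were higher with IAA than in mock by a median of 1.49 on the log2(CPM + 1) scale, with a range of 1.00 to 3.68, and the ratio of mean CPM between IAA and mock had a median of 3.01 and reached 38.2. In all 89 genes the 3 IAA libraries lay above the 3 mock libraries. This held for 21.4% of all genes above 5 CPM at 0 h, and nothing is read from the count, because the rule used this comparison. The largest differences were those of Pp3c13_24110V3.1 (log2 difference 3.68) and Pp3c2_26720V3.1 (3.66).

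Pp3c13_24110V3.1, a model of 1073 bases, also stood lowest at 12 h relative to 0 h. The IAA libraries held 21.8, 33.3 and 21.4 CPM of it, and the mock libraries 0.851, 1.18 and 1.16 CPM. In the decapitation series it began at 54.9, 29.8 and 33.1 CPM, held 33.0, 21.1 and 43.4 CPM after 2 h, and held 3.53, 10.0 and 9.73 CPM after 6 h. Its 12 h libraries had 3.63, 1.27 and 1.25 CPM, and its 24 h libraries 20.7, 36.8 and 48.2 CPM. The libraries of 0 h, 2 h and 24 h overlapped, and all of them lay above all libraries of 6 h and 12 h. Against 0 h its log2 difference was -3.72 at 12 h and -0.15 at 24 h, the latter 0.16 without replicate 1 of 0 h.

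Pp3c2_26720V3.1, a model of 3051 bases, had 61.9, 71.8 and 59.6 CPM with IAA and 3.85, 3.30 and 5.42 CPM in mock. In freshly cut stems it had 81.2, 46.7 and 46.0 CPM, followed by 62.3, 45.2 and 82.3 CPM after 2 h and 19.3, 36.8 and 46.2 CPM after 6 h. Its 12 h libraries had 10.8, 9.33 and 7.35 CPM, and its 24 h libraries 31.3, 45.3 and 65.1 CPM. The 12 h libraries were the lowest of the series and overlapped with no other time, whereas the libraries of 6 h overlapped with those of 0 h, 2 h and 24 h.

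Pp3c16_21270V3.1, next in the size of its difference between 12 h and 0 h (-3.56 on the log2 scale), began at 29.8, 11.3 and 11.6 CPM. After 2 h it had 7.95, 5.10 and 11.4 CPM, after 6 h 1.41, 6.34 and 8.26 CPM, after 12 h 0.735, 0.507 and 0.480 CPM, and after 24 h 9.37, 11.1 and 19.9 CPM. Replicate 1 of 0 h was far above the others, and without it the difference at 12 h was -2.99. With IAA this gene stood at 8.31, 11.6 and 7.89 CPM, and in mock at 0.365, 0.163 and 0.201 CPM, where the libraries held 9, 4 and 5 read pairs.

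**Figure D2:**
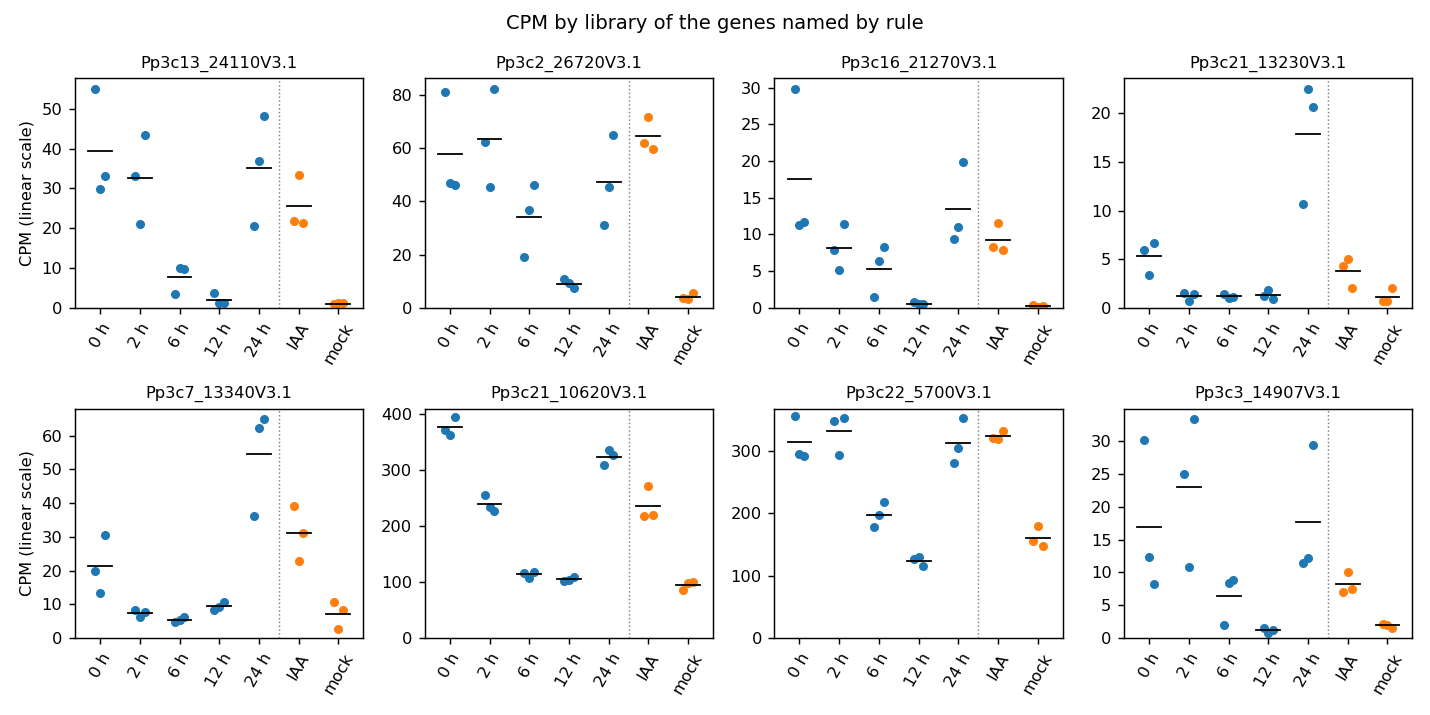
CPM (linear axis from 0, its own range in each panel) of the 8 members named by their rank in a comparison, in the 15 decapitation libraries (blue) and the 6 auxin libraries (orange), with group means as black lines. The 12 h points lie below the 0 h points in each panel, and Pp3c21_13230V3.1 and Pp3c7_13340V3.1 stand higher at 24 h than at 0 h.

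The replicates of the 2 most abundant members per length of the gene model lay closer together. Pp3c21_10620V3.1, a model of 1245 bases, had the highest level at 0 h, 303 CPM per kilobase, against a median of 17.6 among the members and 12.7 among all genes above 5 CPM at 0 h. It began at 373, 363 and 395 CPM and had 255, 235 and 228 CPM after 2 h, then 116, 108 and 119 CPM after 6 h. The 12 h libraries had 103, 104 and 109 CPM, and the 24 h libraries 309, 336 and 327 CPM. Its libraries of 0 h, 2 h and 6 h did not overlap, those of 6 h and 12 h did, and those of 24 h lay below those of 0 h. With IAA it had 219, 273 and 220 CPM and in mock 86.9, 98.3 and 99.9 CPM.

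Pp3c22_5700V3.1, a model of 1608 bases and next in level with 196 CPM per kilobase at 0 h, had like levels at the first 2 times. These were 356, 295 and 292 CPM at 0 h and 348, 294 and 353 CPM at 2 h. Its later libraries held 177, 198 and 219 CPM (6 h), 126, 129 and 116 CPM (12 h) and 280, 305 and 353 CPM (24 h). The 0 h, 2 h and 24 h libraries overlapped. In the auxin experiment it had 320, 320 and 332 CPM with IAA and 156, 179 and 148 CPM in mock, a log2 difference of 1.00.

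The comparison of 6 h with 2 h uses libraries that took no part in the choice. Both times lie between 0 h and 12 h, where the rule requires a fall, so the choice still favours a decrease here. How much of the decrease follows from the rule was not tested. Most members fell in this interval. In edgeR's quasi-likelihood test across 20269 genes, 66 of the 89 members passed as lower after 6 h at a Benjamini-Hochberg adjusted p below 0.05, where 13.2% of all tested genes were called lower. No member was called higher, against 12.8% of all tested genes. The count of members higher was also 0 at an unadjusted p below 0.05 in edgeR and at an adjusted p below 0.05 in DESeq2. All 89 members had passed the filter on low counts. The median log2 change of the members was -0.63, with the middle 50% of them between -0.88 and -0.37, beside a median of 0.01 over all tested genes. At least 2-fold decreases were called in 14 members, a decrease called in 1.79% of all tested genes. Without replicate 1 of 6 h, the library in which most members were lowest, 50 members were called lower, with a median of -0.51.

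**Figure D3:**
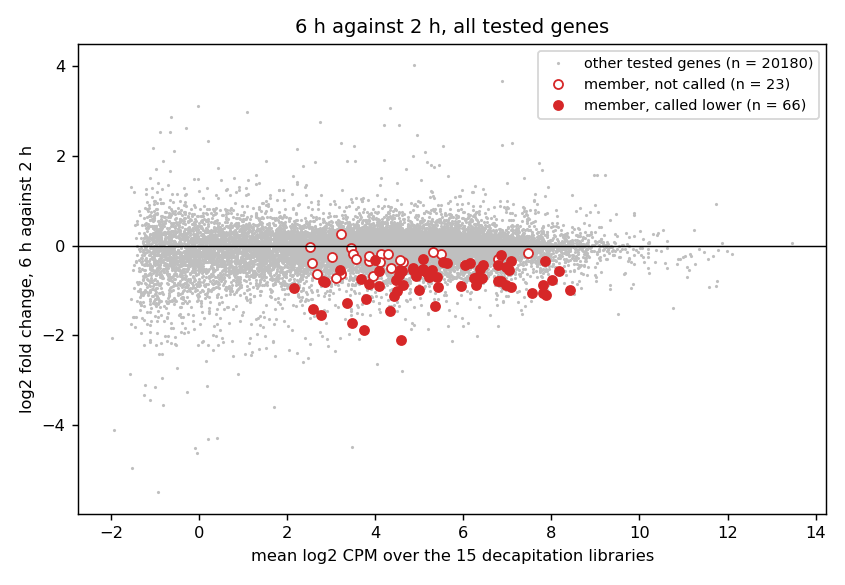
Log2 fold change of 6 h against 2 h (edgeR) against the mean log2 CPM over the 15 decapitation libraries, for the members called lower (filled, n = 66), the members not called (open, n = 23) and the other tested genes (grey). The members lie below 0 over the whole range of levels, except 1 open point.

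The largest called decreases from 2 h to 6 h were those of Pp3c13_24110V3.1 and Pp3c3_14907V3.1. The log2 change of Pp3c13_24110V3.1 was -2.09 with a standard error of 0.413 (adjusted p = 0.00166, edgeR). Over 15 alternative settings its adjusted p in edgeR or DESeq2 lay between 0.000512 and 0.00989. The 2 h libraries held 25.01, 10.8 and 33.3 CPM of Pp3c3_14907V3.1 and the 6 h libraries 2.04, 8.33 and 8.87 CPM, which did not overlap. Its log2 change was -1.87 with a standard error of 0.563 (adjusted p = 0.0230, edgeR). This call was lost when replicate 1 of 2 h (edgeR adjusted p = 0.0581), replicate 3 of 2 h (0.101) or replicate 1 of 6 h (0.0859) was left out, and over all alternatives its adjusted p ranged from 0.0108 to 0.101. The gene began at 30.1, 12.4 and 8.22 CPM, and its 12 h libraries held 1.51, 0.761 and 1.25 CPM and its 24 h libraries 11.4, 12.2 and 29.4 CPM.

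The 2 most abundant members per length had smaller standard errors in this interval. The log2 change of Pp3c21_10620V3.1 was -1.09 with a standard error of 0.0584 (adjusted p = 4.94e-09, edgeR), and that of Pp3c22_5700V3.1 was -0.76 with a standard error of 0.108 (adjusted p = 9.39e-05). Of the 23 members not called, 22 had a negative log2 change, and 10 had a coefficient of variation above 0.2, a value exceeded by 16 members in all. The remaining gene, Pp3c13_16580V3.1, named here after its values were seen, had a log2 change of 0.25 with a standard error of 0.335 (adjusted p = 0.636, edgeR). Across the 89 members the size of the auxin difference and the log2 change from 2 h to 6 h had a Spearman's rho of 0.10, a description over genes that share the same libraries.

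The mean of 72 of the 89 members (80.9%) was below 0 h after 2 h, against 39.3% of genes above 5 CPM at 0 h, and that of 87 (97.8%, against 38.3%) after 6 h. Both times are compared here with the 0 h libraries that chose the members, and a rule that takes genes high at 0 h favours lower values at other times. These values are a description with no test, and nothing is read from the counts. The median log2(CPM + 1) difference from 0 h was -0.41 at 2 h and -0.93 at 6 h, and the median ratio of mean CPM to 0 h was 0.749 after 2 h, 0.516 after 6 h and 0.327 after 12 h. A difference of -1 or less was reached by 6 members at 2 h and by 39 at 6 h, against 0.27% and 1.95% of genes above 5 CPM at 0 h. In 17 members the mean at 2 h was above that at 0 h, and in 58 (65.2%, against 8.68% of genes above 5 CPM at 0 h) each of the first 4 means was lower than the one before.

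The time of the lowest mean differed among the members. In 75 of the 89 (84.3%, against 13.7% of genes above 5 CPM at 0 h) it was 12 h. In 14 (15.7%, against 15.5%) it was 6 h, a share near that of all genes above 5 CPM at 0 h. The dashed line in the plot of the depth of the fall separates the 14 from the 75. The 14 genes had median differences from 0 h of -0.76 after 2 h, -1.52 after 6 h and -1.25 after 12 h, and the 75 genes had -0.29, -0.83 and -1.57. At 24 h the mean was above that of 0 h in 12 of the 14 and in 15 of the 75, with medians of 0.27 and -0.29. Both classes were drawn from these same means, and no test was made between them. The 12 h libraries lay all below the 6 h libraries in 64 members and all above them in 8, against 26.5% and 24.8% of genes above 5 CPM at 0 h. The libraries of these times overlapped in 17 members. Pp3c21_13230V3.1, of the 14, was among them, its means being 1.21 (6 h) and 1.36 CPM (12 h). The low level at 12 h is part of the rule, so nothing is read from these counts either.

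**Figure D4:**
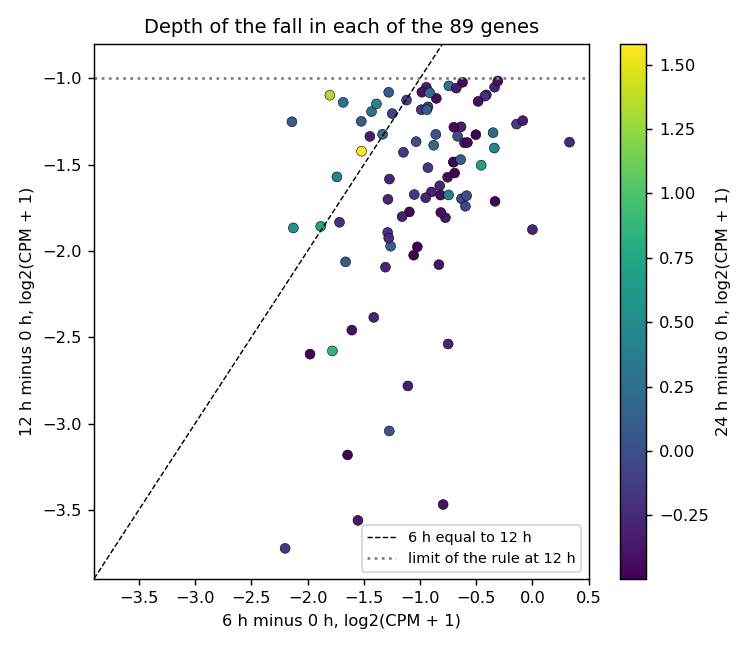
Difference of log2(CPM + 1) from 0 h at 6 h (horizontal) and at 12 h (vertical) for each of the 89 genes, coloured by the difference at 24 h. The 14 points above the dashed line were lower at 6 h than at 12 h, and the 2 brightest points, with the highest 24 h values, are among them.

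At 24 h the members stood above the lower limit set by the rule, which sets no upper limit. Their ratio of mean CPM to 0 h had a median of 0.844 and a range of 0.691 to 3.36. From 12 h to 24 h the ratio of mean CPM had a median of 2.72 and a range of 1.51 to 23.4. The 3 libraries of 24 h lay above the 3 of 12 h in all 89 genes, as in 16.2% of genes above 5 CPM at 0 h, and nothing is read from this count, which the rule fixes in part. Against 0 h the 24 h libraries overlapped in 45 members, lay all below in 29 and all above in 15. Among genes above 5 CPM at 0 h, 32.9% lay all below and 18.4% all above. In 62 members (69.7%) the mean at 24 h was lower than at 0 h, a share near the 62% of all genes above 5 CPM at 0 h. In 6 members (6.74%, against 2.63%) the difference was at least 0.5.

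The members that stood furthest above their start were Pp3c21_13230V3.1 and Pp3c7_13340V3.1. Pp3c21_13230V3.1 had 5.92, 3.35 and 6.72 CPM at 0 h and lay between 0.707 and 1.88 CPM in all 9 libraries of 2 h, 6 h and 12 h. At 24 h it had 10.6, 22.5 and 20.6 CPM, all above the 0 h libraries, a log2 difference of 1.58. In the auxin experiment it had 4.32, 5.04 and 2.07 CPM in IAA and 0.689, 0.693 and 2.05 CPM in mock, so that the lowest IAA library and the highest mock library nearly met. Pp3c7_13340V3.1 began at 19.9, 13.3 and 30.7 CPM and had 8.38, 6.31 and 7.81 CPM after 2 h, 4.82, 5.23 and 6.13 CPM after 6 h, and 8.39, 9.08 and 10.8 CPM after 12 h. The last time had 36.1, 62.3 and 64.9 CPM, again all above 0 h, with a log2 difference of 1.31. In both genes replicate 1 was the lowest library of 24 h.

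**Figure D5:**
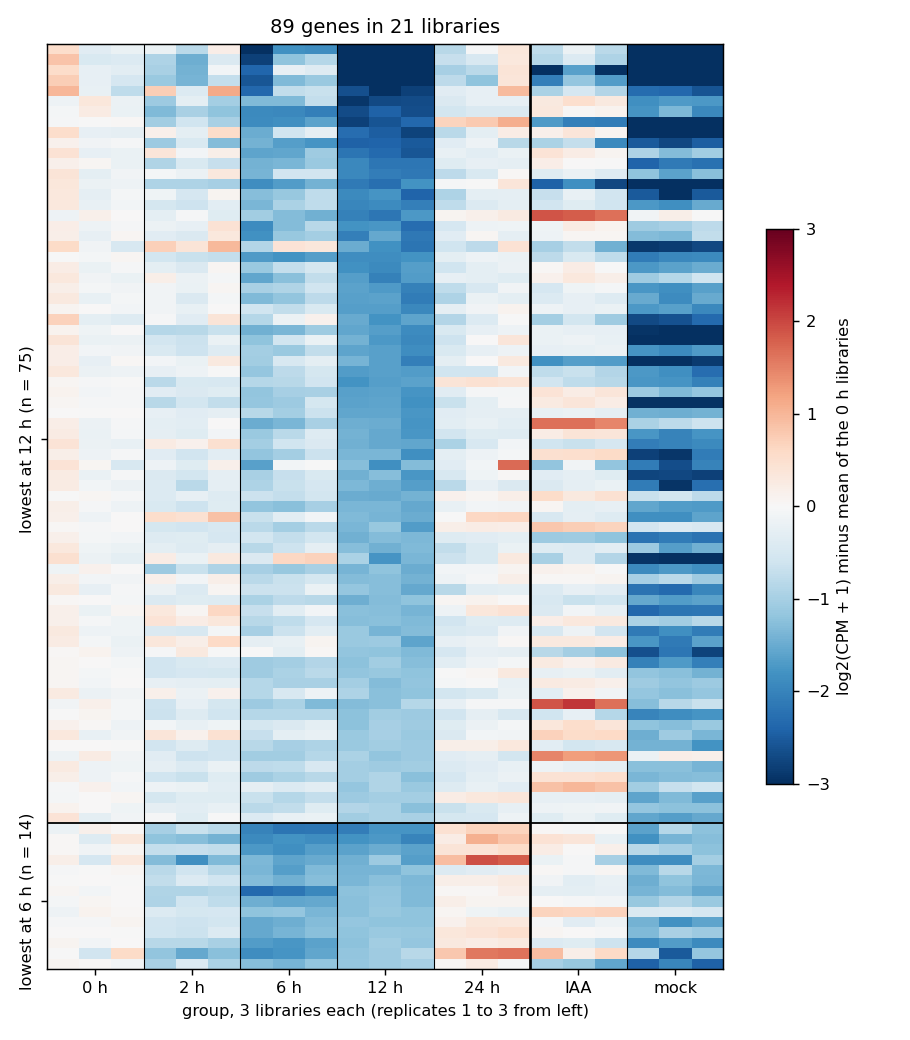
Log2(CPM + 1) of the 89 genes (rows) in 21 libraries (columns), each minus the mean of the gene's 0 h libraries, with colours saturated at -3 and 3. The 75 genes lowest at 12 h are above the horizontal line and the 14 lowest at 6 h below it, and the heavy vertical line separates the decapitation series from the auxin experiment.

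Between the experiments, the members stood in mock below their level in freshly decapitated stems, and with IAA closer to it, as the heat map of all libraries shows. The mock libraries were all below the 0 h libraries in 87 of the 89 genes, against 33.7% of genes above 5 CPM at 0 h, and the median ratio of mean CPM between mock and 0 h was 0.295. With IAA this ratio was 0.857, and 60 members (67.4%) were within 1.5-fold of their 0 h mean, against 77.8% of genes above 5 CPM at 0 h. The IAA libraries overlapped with those of 0 h in 35 members, were all below in 37 and all above in 17, against 44.6% below and 24.5% above among genes above 5 CPM at 0 h. The 0 h, mock and IAA libraries all chose the members, and the rule favours high 0 h and low mock values. These ratios and counts are therefore a description, and nothing is read from them. The growth protocols of the experiments differ in the labels and no group is shared, so treatment and experiment cannot be told apart in these ratios.

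The fall from 2 h to 6 h was not seen in these genes alone. By the same level limit, 170 genes were auxin-raised and low at 12 h but stayed at -0.5 or less at 24 h. Another 92 were low at 12 h and recovered, with an auxin difference within 0.5 of 0. A further 135 were auxin-raised with a 12 h difference within 0.5 of 0 and a 24 h difference above -0.5. From 2 h to 6 h, 69 of the 170 (40.6%), 78 of the 92 (84.8%) and 41 of the 135 (30.4%) were called lower in edgeR. Beside them stood 66 of the 89 members (74.2%) and 13.2% of all tested genes. The median log2 changes were -0.68, -0.61 and -0.18, beside -0.63. The median coefficients of variation were 0.237, 0.0666 and 0.0779, beside 0.117. Members are not replicates, so no test was made between these gene groups.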

How the data were processed

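Messenger RNA of 21 libraries was sequenced as stranded read pairs from 4 µg of total RNA each, per the labels' protocols. The authors deposited whole-number counts of read pairs and of single reads per gene model, with no normalization. Per the file headers, reads with several equally good alignments were dropped (11.6% to 13.6% of mapped reads per library), unpaired reads were treated as unmapped, and pairs were counted when both mates lay on 1 model on opposite strands. Near-identical gene copies are thus undercounted. The submitters' processing notes name Bowtie2 as a tool, and the genome build and annotation are not given in the sources used here. Depth ran from 18995348 to 32039288 counted pairs per library, and all replicates differed by more than counting noise.

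Pair counts were tested in R 4.3.3 with edgeR 4.0.16 (filterByExpr, TMM, glmQLFit and glmQLFTest, group as the sole term, 15 decapitation libraries, 20269 genes), with Benjamini-Hochberg adjustment over all of them and a threshold of 0.05. A standard error was obtained as the size of a log2 change over the root of its F statistic. CPM used the sum of each count column. Alternatives were RLE scaling, other filters, DESeq2 1.42.0, a replicate block, other sets of libraries, single reads, and other settings of the rule. On simulated 6 h and 2 h counts of 20096 genes, 58.2%, 88.1% and 98.5% of genes changed by 0.5, 1 and 2 on the log2 scale were called, and 9 of 19896 unchanged genes. The changed genes were drawn at random from tested genes with a 2 h mean of at least 1 CPM, not from the members. They numbered 67, 67 and 66, whereas 2678 genes were called lower and 2591 higher in the data. Median coefficients of variation were 0.0646 over all tested genes and 0.117 in the members, for which these percentages need not hold. Identifiers are printed for at most 2 members per direction and comparison, by rank, and for the genes nearest each limit. Outside that rule, the member with a positive log2 change from 2 h to 6 h and the pairs of neighbouring identifiers are also printed. No calls against 0 h are given for the members, because the 0 h libraries chose them. The members, gene groups and tests were chosen with earlier results of these data known. Planned lists of hormone, cell wall, transcription factor, cell cycle and clock genes could not be filled and were not run. Each p-value judges a difference between groups against the spread between the replicates of these samples.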

Additional observations from a re-analysis of the deposited data

How the results depend on the processing

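With a fold change of at least 2 required, 14 members were called lower from 2 h to 6 h, and 362 genes lower and 126 higher in all, fewer because the threshold is stricter. Under the other 8 alternatives that keep all libraries of 2 h and 6 h, 63 to 67 members were called lower, 0 higher, and their median log2 change was -0.65 to -0.62. Leaving out each library of 2 h or 6 h in turn gave 50 to 67 members lower and 0 higher, a median of -0.75 to -0.51, and 2053 to 2360 genes lower and 1878 to 2195 higher in all. With the replicate number as a block, 63 members were called lower, all among the 66. No pairing of the replicates is stated, so the numbers were not taken as pairs. Same-numbered libraries of 2 h and 6 h had correlations of 0.158, 0.000335 and 0.175 in their deviations from group means. Those of differently numbered libraries ran from -0.253 to 0.162. The rule itself gave 58 genes with a pseudocount of 5, 51 of them among the 89. A larger pseudocount makes every log2 difference smaller in size, and which limit the other members missed was not examined. With TMM-scaled CPM the rule gave 123, all 89 among them, and with libraries left out in turn 70 to 128. Without each 0 h library in turn, the median of the 89 genes against 0 h was -0.42 to -0.33 at 2 h and -0.97 to -0.86 at 6 h. Of 795 values of named genes under alternatives, 747 kept their side of the threshold or stayed within the replicate spread, 26 moved by more, and 16 lost and 1 gained a call. The other 5 turned sign in the test of 6 h against 2 h, in Pp3c21_13230V3.1, which was not called (-0.033). It had 0.0018 with single reads, and -0.30 to 0.15 with libraries of 2 h and 6 h left out in turn. Within the replicate spread, the difference of 24 h from 0 h also turned positive under some settings in 4 named genes, reaching 0.21 in Pp3c16_21270V3.1 and 0.03 in Pp3c2_26720V3.1 (both without replicate 1 of 0 h), 0.16 in Pp3c13_24110V3.1 and 0.09 in Pp3c22_5700V3.1. With single libraries left out, some named genes also passed a limit of the rule. The 24 h difference fell to -0.73 in Pp3c16_21270V3.1 and -0.59 in Pp3c2_26720V3.1. It stayed inside the limit in Pp3c13_24110V3.1 (-0.44) and Pp3c22_5700V3.1 (-0.10). The difference of 12 h from 0 h rose to -0.76 in Pp3c7_13340V3.1. That of IAA from mock fell to 0.97 in Pp3c21_13230V3.1 and 0.95 in Pp3c22_5700V3.1. Genes under about 1 CPM at 12 h or in mock rest on few read pairs, which limits their differences.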

Other observations

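In this annotation the identifier carries the number of the chromosome. The 89 genes fell on all 27 numbered chromosomes, with 9 of them (10.1%) on chromosome 13, which holds 3.22% of the genes above 5 CPM at 0 h, and 7 (7.87%) on chromosome 9, which holds 3.87%. These chromosomes were singled out after their counts were seen, and no test was made. By the numbering of the identifiers, 2 pairs of members lay within 10 steps of each other. Pp3c21_10620V3.1 and Pp3c21_10640V3.1 had 1 model between them, and Pp3c13_20480V3.1 and Pp3c13_20590V3.1 had 8. Whether the genes of a pair share sequence was not tested. The members were of ordinary length, with a median of 2321 bases against 2360 for genes above 5 CPM at 0 h.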
